A study of Mus musculus with 6 samples.

Results

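The genes described here encode the receptors, Smads and Ski-family repressors of the TGF-β pathway. They were chosen by name as 10 rows of a matrix of 24421 genes: *Tgfbr1*, *Tgfbr2*, *Tgfbr3*, *Smad2*, *Smad3*, *Smad4*, *Smad6*, *Smad7*, *Ski* and *Skil*. All 10 were found. The samples were GFP+ living cells sorted from digested aortic roots and ascending aortas of 129S6/SvEv mice at 8 weeks of age. Every mouse carried the conditional *CAG-Sun1/sfGFP* tracer allele, which lights up the nuclear envelope once Cre has acted. The labels name no treatment, and the table heads all 6 libraries as WT. In 3 libraries Cre came from the *Mef2cSHF* allele, active in the secondary heart field (SHF) and its descendants, and in 3 from *Wnt1-Cre2*, active in the neural crest, here of the heart (CNC). Both alleles mark an origin and not a cell type, so that the sorted cells are a mixture. The labels do not tie a library to 1 mouse or to a pool, and p-values measure only the spread between these libraries. The comparison of SHF with CNC asks whether the aortic cells of the 2 origins differ in the machinery that receives and limits TGF-β signals, since cells of both origins lie side by side in this segment.

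TGF-β signals pass through a complex of paired kinase receptors. *Tgfbr2* encodes the type II receptor, which is always active, and *Tgfbr1* the type I receptor, which has to be switched on within the complex. *Tgfbr3* encodes betaglycan, a type III co-receptor that presents ligand. The Smads are the messengers: Smad2 and Smad3 are substrates of the active type I receptor, and Smad4 is the shared partner with which they act on chromatin. Smad6 and Smad7 are inhibitory Smads, of which Smad7 blocks the type I receptor and brings ubiquitin ligases to it, and Smad6 acts mostly on the BMP branch. Ski and SnoN, the product of *Skil*, are co-repressors that bind Smad complexes on DNA, and *Smad7* and *Skil* are themselves induced by TGF-β, which makes them parts of negative feedback. Heterozygous loss of function in several of these genes causes aortic aneurysm syndromes in people.

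Levels are given as TPM, a unit scaled to transcript length and to the total of each library, so levels of different genes in a library can be compared. TPM keeps no record of depth, which is therefore unknown. The number of genes above 0 TPM ran from 9255 in SHF replicate 2 to 11858 in SHF replicate 1. Of the 5890 genes with a mean of 2 to 20 TPM, 69.7% were listed at 0 in at least 1 library, so a 0 is given here as listed at 0 and not as absence. *Xist* was above 0 in SHF replicates 2 and 3 and the Y-linked *Ddx3y* in the other 4 libraries. The sums of several marker lists differed by lineage, among them those of endothelium, cardiomyocytes and fibroblasts. The 10 endothelial genes reached 99.45 to 622 TPM in SHF libraries and 24.31 to 73.61 TPM in CNC libraries. In CNC *Cdh5*, *Tie1*, *Emcn*, *Cldn5* and *Vwf* were each listed at 0, as *Cldn5* was in SHF replicate 1. *Tek* did not favour SHF, at 31.58, 0 and 57.25 TPM in SHF replicates 1 to 3 and 36.71, 23.1 and 1.11 TPM in CNC. *Kdr* was at 1.9, 0 and 32.17 TPM in SHF and 14.38, 0 and 0 TPM in CNC. *Pecam1*, *Egfl7* and *Esam* also overlapped between lineages. The 8 cardiomyocyte genes reached 87.44 to 117.36 TPM in SHF and 0 to 37.89 TPM in CNC, where *Myh6*, *Myh7*, *Actc1* and *Nppa* were listed at 0, as they also were in SHF replicate 2, whose sum was *Tnnt2* alone. Other genes of this list did not favour SHF, with *Tnni3* at 13.34, 0 and 0 TPM in SHF replicates 1 to 3 and 15.61, 0 and 0 TPM in CNC replicates 1 to 3, and *Ttn* and *Ryr2* under 1 TPM in every library. The 10 fibroblast genes reached 17529.35 to 18736.75 TPM in SHF and 20539.88 to 24499.33 TPM in CNC. Of Schwann and glial markers, *Sox10* was listed at 0 in the SHF libraries and was at 0, 2.81 and 4.81 TPM in CNC replicates 1 to 3. *Mbp* was likewise listed at 0 in SHF and was at 0, 2.84 and 19.48 TPM in CNC replicates 1 to 3. *S100b* overlapped, at 1.5 to 15.32 TPM in SHF and 1.73 to 19.31 TPM in CNC. Other genes of the list are not given, so these values do not place glial transcripts in particular libraries. No sum over the glial list is given. The 10 smooth muscle genes overlapped, at 901.89 to 2130.07 and 891.31 to 1309.57 TPM. The 8 leukocyte genes reached at most 84.7 TPM, with *Ptprc* listed at 0 in all 6 libraries, and the 6 melanocyte genes at most 35.14 TPM, with *Dct*, *Tyrp1*, *Pmel* and *Mlana* listed at 0. The highest markers by mean were *Acta2* and *Tagln* of smooth muscle, *Dcn* and *Lum* of fibroblasts, *Pecam1* and *Emcn* of endothelium, *Lyz2* and *Cd68* of leukocytes, *Tnnt2* and *Actc1* of cardiomyocytes, and *Tyr* and *Mitf* of melanocytes. In a bulk sample, fewer cells of a type and less RNA per cell cannot be told apart.

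Promoters of the signalling receptor pair are shown because *Tgfbr1* and *Tgfbr2* act in the same complex, and the libraries of the lineages overlapped for *Tgfbr2* but not for *Tgfbr1*. That contrast between the genes was not tested. Each run is the 250 bases before the start of the gene in RefSeq on GRCm38.p6, written 5′ to 3′ on the strand of the gene. Capitals mark the GC box GGGCGG and the Smad box CAGAC on either strand. The *Tgfbr1* run is chr4:47352972-47353221 on the plus strand and the *Tgfbr2* run is chr9:116175364-116175613 on the minus strand.
Tgfbr1: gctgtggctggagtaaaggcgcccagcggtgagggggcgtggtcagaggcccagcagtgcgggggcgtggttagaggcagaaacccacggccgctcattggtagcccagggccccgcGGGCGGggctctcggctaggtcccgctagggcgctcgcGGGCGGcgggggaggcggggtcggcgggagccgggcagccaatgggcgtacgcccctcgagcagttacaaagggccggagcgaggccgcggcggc
Tgfbr2: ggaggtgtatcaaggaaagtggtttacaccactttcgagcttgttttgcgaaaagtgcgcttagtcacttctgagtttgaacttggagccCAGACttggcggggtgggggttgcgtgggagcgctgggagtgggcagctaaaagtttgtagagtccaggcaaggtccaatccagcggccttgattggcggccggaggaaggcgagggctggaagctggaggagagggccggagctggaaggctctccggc
The *Tgfbr1* run held 2 GC boxes and no Smad box, with 74.8% G and C. The *Tgfbr2* run held 1 Smad box and no GC box, with 58.4% G and C. Over all 32851 runs of this length in the table, 32.7% held a GC box and 42.2% a Smad box, and the median G and C content was 52.4%. Neither run held the palindrome GTCTAGAC or TATAAA, which 0.2% and 12.4% of runs held. The motifs searched do not contain each other, and a match describes these letters only.

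The receptors and *Skil* were the most abundant of the 10 transcripts, and *Ski* and the Smads were lower. By the median over 6 libraries the order was *Tgfbr3* at 253 TPM, *Tgfbr2* at 163, *Skil* at 146, *Tgfbr1* at 57.2, *Ski* at 28.7, *Smad3* at 24.5, *Smad7* at 11.0, *Smad4* at 8.72, *Smad2* at 2.16 and *Smad6* at 0.525 TPM. Over all 6 libraries the range of every member overlapped that of the next in this order, yet *Skil* was above *Tgfbr1* in 6 of 6 libraries and *Ski* was below *Tgfbr1* in 4. Within a lineage the order was clearer. In SHF libraries *Tgfbr3*, *Skil* and *Tgfbr2* overlapped, *Tgfbr1* lay apart below them at 61.41 to 111.88 TPM, and *Ski* apart below *Tgfbr1* at 28.27 to 47.59 TPM. In CNC libraries *Skil*, at 94.69 to 113.55 TPM, lay apart below *Tgfbr2* and apart above the rest, while *Smad3*, *Tgfbr1* and *Ski* overlapped. Among all rows by mean TPM, *Tgfbr3* ranked 621, *Tgfbr2* 833, *Skil* 1012 and *Tgfbr1* 2598, whereas *Smad3* ranked 4761, *Smad2* 9931 and *Smad6* 12258. The 3 receptors held 54.5% to 75.2% of the summed TPM of the 10 genes in a library, and *Ski* with *Skil* held 18.5% to 35%.

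**Figure D1:**
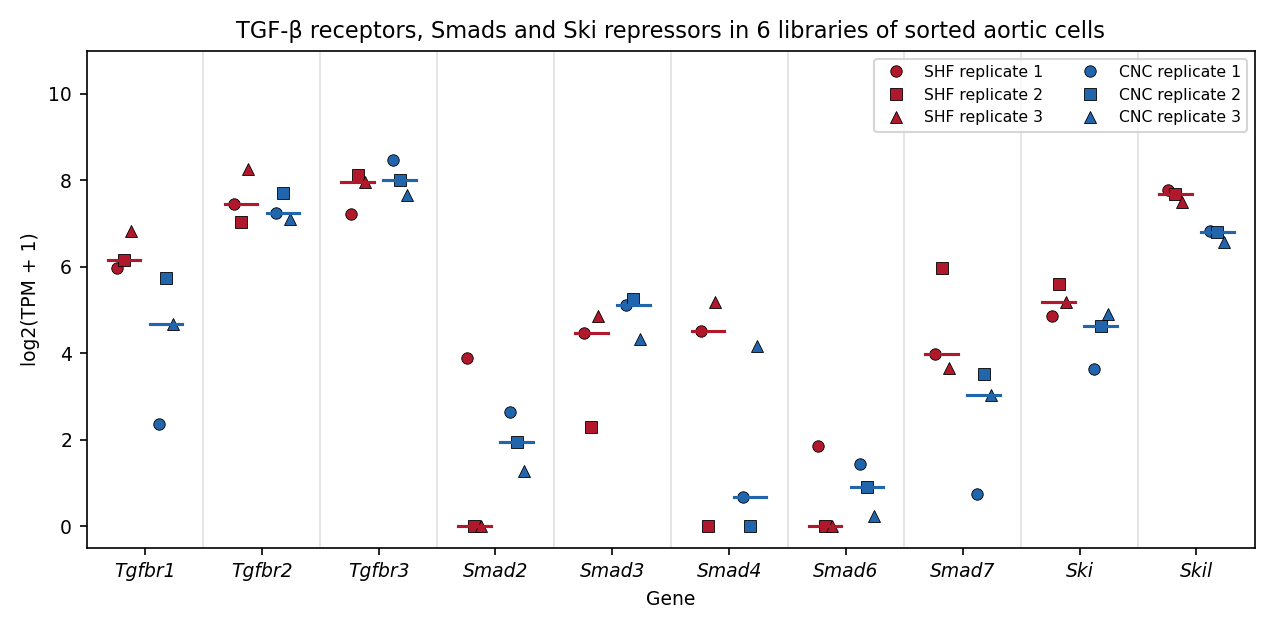
Level of each gene in each library as log2(TPM + 1) on the vertical axis, with red symbols for the 3 SHF libraries, blue symbols for the 3 CNC libraries and a bar at the median of each lineage. The 3 SHF libraries lie above the 3 CNC libraries for *Tgfbr1*, *Smad7* and *Skil*, and *Smad2*, *Smad4* and *Smad6* each sit at 0 in 2 libraries.

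No member differed between lineages at the adjusted threshold. Levels were tested with limma on log2(TPM + 1), SHF minus CNC, with Benjamini-Hochberg adjustment over the 10185 genes that reached 1 TPM in 3 or more libraries. Because of the added 1, fold changes of low genes come out too small. Of the 10 members 9 were tested, since *Smad6* had at least 1 TPM in too few libraries, and 0 of the 9 had an adjusted p under 0.05, as did 0 of 10185 genes (0.0%). At an unadjusted p under 0.05 there were 2 members, *Tgfbr1* and *Skil*, both higher in SHF, against 5.86% of all genes tested, 2.69% with SHF higher and 3.17% with CNC higher. This count fell to 0 without SHF replicate 1, where the unadjusted p in limma was 0.0646 for *Tgfbr1* and 0.0604 for *Skil*, and to 0 in limma without the variance trend, at 0.0707 and 0.118. *Tgfbr1* also missed 0.05 without SHF replicate 2, SHF replicate 3 or CNC replicate 1, and *Skil* without CNC replicate 3. In 3 members, *Tgfbr1*, *Smad7* and *Skil*, the libraries of the lineages did not overlap, all with SHF higher, where 6.11% of all genes tested were of this kind, 5.68% were apart with CNC higher and 11.8% in either direction. For any single gene, the smallest p that exact two-sided permutation of 3 and 3 libraries allows is 0.1. The median log2 fold change was 0.83 over the 9 members, of which 6 were positive and 3 negative, and 0.02 over all genes tested.

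**Figure D2:**
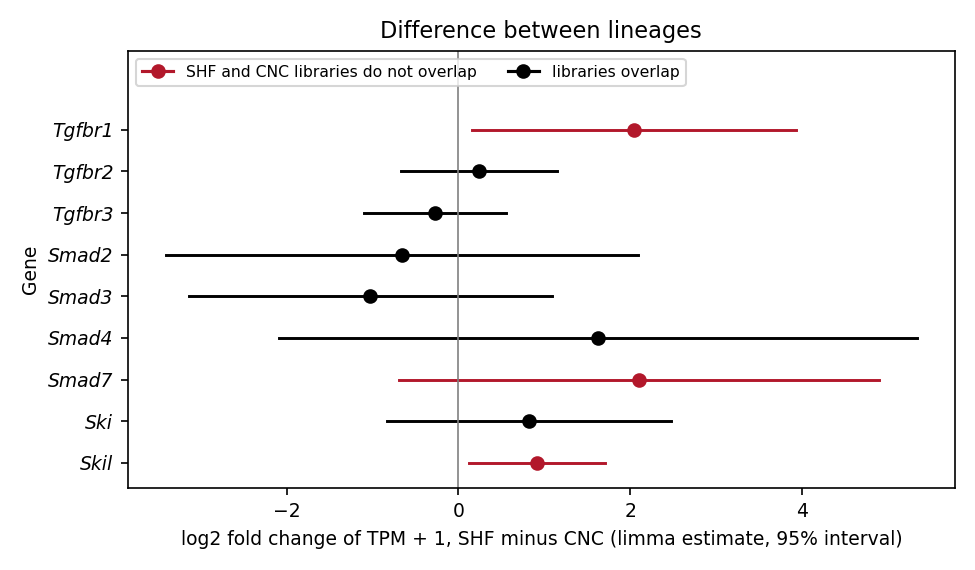
Difference between lineages for the 9 tested genes, as the limma estimate of the log2 fold change of TPM + 1 (SHF minus CNC) on the horizontal axis with its 95% interval, red where the SHF and CNC libraries do not overlap. The intervals of *Tgfbr1* (0.16 to 3.93) and *Skil* (0.12 to 1.71) lie above 0 before adjustment, and the other 7 span 0.

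Among the receptors, *Tgfbr1* was the gene with the wider gap between lineages. *Tgfbr1* spans chromosome 4 from 47353222 to 47414931 in GENCODE M21 on GRCm38, the build also called mm10. It was at 61.41, 70.29 and 111.88 TPM in SHF replicates 1 to 3, while CNC replicates 1 to 3 had 4.19, 52.97 and 24.57 TPM. The CNC libraries were uneven, with a 12.6-fold range against 1.82-fold among SHF libraries, and the lowest SHF library was 1.16 times the highest CNC library. The means were 81.2 ± 26.9 TPM (SD, n = 3) in SHF and 27.2 ± 24.5 TPM (SD, n = 3) in CNC, a ratio of 2.98. In limma the log2 fold change was 2.04 with a standard error of 0.86, an unadjusted p of 0.0363 and an adjusted p of 0.813. CNC replicate 1 carried much of this, and without it the log2 fold change was 1.10 with an adjusted p of 0.974, while without CNC replicate 2 it was 2.79.

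*Tgfbr2*, on chromosome 9 from 116084293 to 116175360, was steadier. Its level was 175.39, 129.85 and 308.93 TPM in SHF replicates 1 to 3 and at 151.45, 207.11 and 136.73 TPM in CNC replicates 1 to 3. SHF replicate 3 was the highest and SHF replicate 2 the lowest of the 6 libraries, so the lineages overlapped fully. In limma the log2 fold change was 0.24 with a 95% interval of -0.67 to 1.15 and an adjusted p of 0.938. Without SHF replicate 3 it was -0.11.

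*Tgfbr3*, on chromosome 5 from 107106570 to 107289629, encodes a co-receptor without kinase activity and was the most abundant member. Its values were 147.74, 280.46 and 249.85 TPM in SHF replicates 1 to 3 and 351.39, 256.83 and 202.98 TPM in CNC replicates 1 to 3. SHF replicate 1 was lowest and CNC replicate 1 highest, with the other 4 libraries mixed between them. The log2 fold change was -0.27 with a 95% interval of -1.10 to 0.55 and an adjusted p of 0.923 in limma, and without SHF replicate 1 it was 0.01. An exon of *Gm43422*, a gene model still awaiting experimental evidence on the same strand, overlaps an exon of *Tgfbr3*.

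The lineages did not overlap in the ratio of type II to type I receptor within a library, as they did not in *Tgfbr1* alone. The other ratios computed here overlapped, and no share over other gene pairs is given. *Tgfbr2* exceeded *Tgfbr1* in 6 of 6 libraries, by 2.86, 1.85 and 2.76 times in SHF replicates 1 to 3 and by 36.1, 3.91 and 5.56 times in CNC replicates 1 to 3. The lowest CNC ratio was above the highest SHF ratio, and CNC replicate 1, with its low *Tgfbr1*, stood far above the rest. As log2 of TPM + 1 the ratio was 1.28 ± 0.35 (SD, n = 3) in SHF and 3.08 ± 1.57 (SD, n = 3) in CNC. The log2 ratio of *Tgfbr3* to *Tgfbr2* was 0.18 ± 0.80 (SD, n = 3) in SHF and 0.69 ± 0.46 (SD, n = 3) in CNC, and its libraries overlapped. The SHF minus CNC difference in the ratio of *Tgfbr2* to *Tgfbr1* was -1.81, and -0.91 without CNC replicate 1. Ratios are descriptions and were not tested.

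The Smads that carry the signal were low and uneven. *Smad3*, on chromosome 9 from 63646767 to 63757994, was the most abundant of them by median and the only 1 above 0 in every library. It was at 21.08, 3.93 and 27.99 TPM in SHF replicates 1 to 3 and at 33.96, 36.96 and 19.1 TPM in CNC replicates 1 to 3. SHF replicate 2 stood low and the other libraries overlapped. The means were 17.7 ± 12.4 TPM (SD, n = 3) in SHF and 30.0 ± 9.56 TPM (SD, n = 3) in CNC. The log2 fold change was -1.03 with a standard error of 0.96 and an adjusted p of 0.896 in limma, and without SHF replicate 2 it was -0.24.

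*Smad2*, the partner of *Smad3* as a substrate of the type I receptor, lies on chromosome 18 from 76241580 to 76310963. It was at 13.77 TPM in SHF replicate 1, was listed at 0 in SHF replicates 2 and 3, and was at 5.22, 2.89 and 1.42 TPM in CNC replicates 1 to 3. The SHF libraries thus held both the highest and the lowest values. The limma estimate on the log2 scale was -0.66 with a 95% interval of -3.41 to 2.09 and an adjusted p of 0.942. Since the value of 13.77 TPM exceeded the 3 CNC values together, the sign of this estimate holds for the log2 scale and not for TPM. It was -1.96 without SHF replicate 1 and -0.01 without SHF replicate 2. *Smad3* was above *Smad2* in 6 of 6 libraries, by 1.53 times in SHF replicate 1 and by 6.51, 12.8 and 13.5 times in CNC replicates 1 to 3, with no ratio given where *Smad2* was listed at 0.

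*Smad4*, the partner that receptor-activated Smads share, lies on chromosome 18 from 73639009 to 73703780. It was at 21.78, 0 and 35.7 TPM in SHF replicates 1 to 3 and at 0.59, 0 and 16.85 TPM in CNC replicates 1 to 3. Each lineage held a library listed at 0 and a library above 16 TPM. The log2 fold change was 1.63 with a 95% interval of -2.09 to 5.34 and an adjusted p of 0.904 in limma, and it was 3.24 without SHF replicate 2, where *Smad4* was listed at 0, and 0.82 without CNC replicate 2. *Smad2*, *Smad3* and *Smad4* together came to 3.93 TPM in SHF replicate 2, the library with the fewest genes above 0, and to 37.37 to 63.69 TPM in the other 5.

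Of the inhibitory Smads, *Smad7* was higher in each SHF library than in any CNC library, by a thin margin. *Smad7* lies on chromosome 18 from 75367529 to 75395935. It was at 14.74, 61.74 and 11.56 TPM in SHF replicates 1 to 3 and at 0.68, 10.48 and 7.15 TPM in CNC replicates 1 to 3. The lowest SHF library was 1.10 times the highest CNC library, and the 6 libraries spanned a 90.8-fold range. SHF replicate 2 was the highest and CNC replicate 1 the lowest. The log2 fold change was 2.10 with a standard error of 1.27, an unadjusted p of 0.126 and an adjusted p of 0.874 in limma. It was 1.38 without SHF replicate 2 and 1.26 without CNC replicate 1, with adjusted p-values of 0.918 and 0.974, and 2.65 without CNC replicate 2.

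*Smad6* lies on chromosome 9 from 63953076 to 64022059. In SHF replicates 1 to 3 it was at 2.63, 0 and 0 TPM, and in CNC replicates 1 to 3 at 1.71, 0.87 and 0.18 TPM. Every library was under 3 TPM, SHF replicate 1 was the highest, and the lineages overlapped. *Smad7* exceeded *Smad6* in 5 of 6 libraries, the exception being CNC replicate 1, where *Smad7* was at 0.398 times *Smad6*.

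*Skil* gave the most even difference of the 10 genes. The gene spans chromosome 3 from 31095058 to 31122577. Its level was 218.59, 205.9 and 179.17 TPM in SHF replicates 1 to 3, and 113.55, 110.66 and 94.69 TPM in CNC replicates 1 to 3. Replicates of a lineage lay within 1.22-fold of each other in SHF and were as close in CNC, and the lowest SHF library was 1.58 times the highest CNC library. The means were 201 ± 20.1 TPM (SD, n = 3) in SHF and 106 ± 10.2 TPM (SD, n = 3) in CNC, a ratio of 1.89. In limma the log2 fold change was 0.91 with a standard error of 0.36, an unadjusted p of 0.0273 and an adjusted p of 0.796. The estimate ran only from 0.83 to 0.99 when each library was left out in turn, and the adjusted p from 0.608 to 0.974. The standard deviation of *Skil* on the log2 scale was 0.15 in SHF and 0.14 in CNC, the smallest of the 10 in each lineage.

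*Ski*, the founding gene of this repressor family, lies on chromosome 4 from 155154075 to 155222592. It was at 28.27, 47.59 and 35.3 TPM in SHF replicates 1 to 3 and at 11.35, 23.89 and 29.12 TPM in CNC replicates 1 to 3. Only CNC replicate 3 and SHF replicate 1 crossed, and CNC replicate 1 was the lowest of the 6 libraries, as it was for *Tgfbr1* and *Smad7*. The means were 37.1 ± 9.78 TPM (SD, n = 3) in SHF and 21.5 ± 9.13 TPM (SD, n = 3) in CNC. The log2 fold change was 0.83 with a standard error of 0.75 and an adjusted p of 0.896 in limma, and it was 0.44 without CNC replicate 1. *Skil* exceeded *Ski* in 6 of 6 libraries, by 7.73, 4.33 and 5.08 times in SHF and 10.0, 4.63 and 3.25 times in CNC, so that the ratio did not separate the lineages. Together the repressors came to 214.47 to 253.49 TPM in SHF libraries and 123.81 to 134.55 TPM in CNC libraries.

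**Figure D3:**
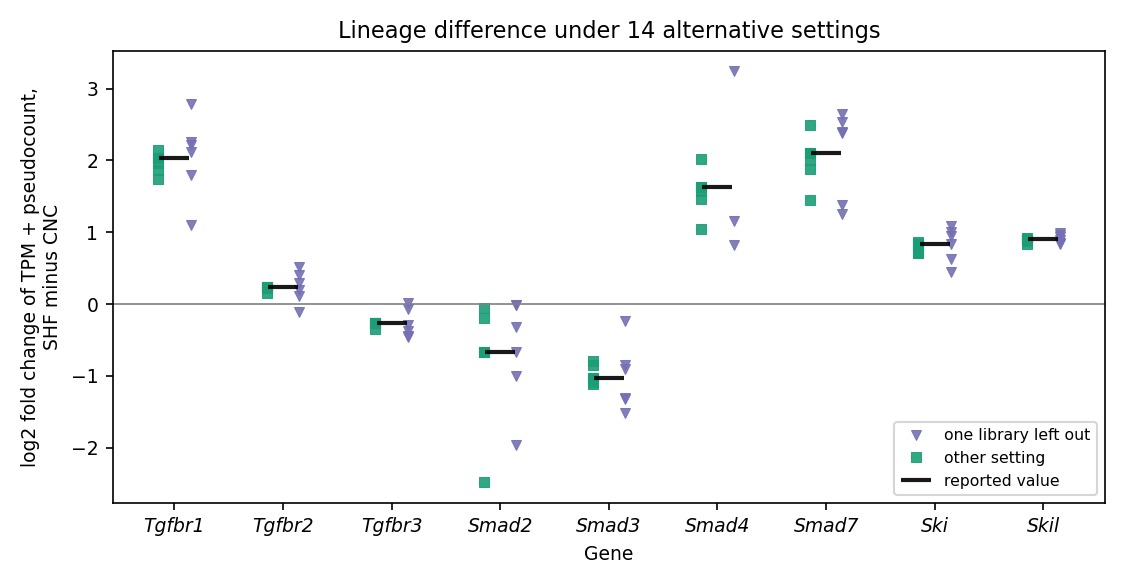
Log2 fold change of TPM plus the pseudocount (SHF minus CNC, vertical axis) of the 9 tested genes as reported (black bars), with 1 library left out (triangles) and under other settings (squares). *Skil* stays between 0.83 and 0.99, while *Smad2* ranges from -2.48 to -0.01 and *Tgfbr1* from 1.10 to 2.79.

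Cell type markers and sex-linked transcripts differed along with these values. Summed endothelial markers were higher in each SHF library than in any CNC library, as were *Tgfbr1*, *Smad7* and *Skil*, and their part in the result was not tested. Within SHF, *Skil* was at 218.59 TPM in replicate 1, where the endothelial sum was 99.45 TPM, and at 205.9 and 179.17 TPM in replicates 2 and 3, where the sum was 622 and 520.41 TPM. *Smad7* was highest in replicate 2, which also had the highest endothelial sum, but was at 11.56 TPM in replicate 3. *Tgfbr1* was at 61.41 TPM in replicate 1, where the endothelial sum was lowest, and at 70.29 and 111.88 TPM in replicates 2 and 3. SHF replicate 1 and the 3 CNC libraries all held Y-linked transcripts, and over these 4 libraries, an alternative chosen after seeing the data, SHF replicate 1 minus the CNC mean was 1.04 for *Skil*, 1.69 for *Tgfbr1* and 1.54 for *Smad7* on the log2 scale, with a direction that the choice of these genes had fixed. The part of cardiomyocyte, fibroblast and glial transcripts was not tested.

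Other genes of the pathway showed no shared direction. Of 44 genes in 6 lists, 38 were tested, 0 had an adjusted p under 0.05 in limma and 1 had an unadjusted p under 0.05, *Smurf2*, against 5.86% of all genes tested. In 3 of the 38 the libraries of the lineages did not overlap, against 11.8% of all genes tested, so these counts do not set the pathway lists apart. The median log2 fold change over the 38 was 0.04, with 20 positive and 18 negative. *Smurf2*, a ubiquitin ligase that Smad7 brings to the receptors, was at 17.38, 15.47 and 14.9 TPM in SHF replicates 1 to 3 and at 0, 1.93 and 3.94 TPM in CNC replicates 1 to 3. The lineages did not overlap, and the log2 fold change was 2.79 with a standard error of 1.23 and an adjusted p of 0.824 in limma. The other 2 genes without overlap were *Wwp1* and *Dab2*, which were higher in CNC and were picked after their values were seen. *Wwp1*, another ubiquitin ligase, was at 5.73, 5.82 and 4.55 TPM in SHF and at 36.4, 15.56 and 13.15 TPM in CNC, and *Dab2*, an endocytic adaptor that binds receptors and Smads, was at 21.47, 39.2 and 48.19 TPM in SHF and at 137.26, 50 and 91.71 TPM in CNC.

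Of the ligands, *Tgfb3* was the most abundant, at 152.44 to 239.64 TPM in SHF and 199.93 to 357.72 TPM in CNC, *Tgfb2* was at 57.11 to 64.62 and 17.56 to 57.97 TPM, and *Tgfb1* stayed under 8 TPM. The medians by list were 0.97 for ligands, 0.05 for other receptors and receptor modulators, 0.49 for BMP-branch Smads, -0.37 for anchors, ligases and phosphatases, 0.08 for nuclear partners and -0.56 for the non-Smad branch, over few genes each. Leaving out 1 library or changing the processing gave other values. The ligand median was 0.25 without CNC replicate 3 and 0.26 without SHF replicate 3. That of other receptors was -0.09 without CNC replicate 1 and 0.43 without SHF replicate 1. That of BMP-branch Smads was -0.20 without SHF replicate 2. That of anchors, ligases and phosphatases was -0.08 without SHF replicate 2 and -0.59 without SHF replicate 1. That of nuclear partners lay between 0.02 and 0.43 as each library was dropped. That of the non-Smad branch was 0.65 without SHF replicate 2, 0.12 after quantile normalization and 0.59 with no filter on low values. Of these shifts, only those of the ligands and that of other receptors without SHF replicate 1 exceeded the pooled SD of the list median within lineages. *Fkbp1a*, whose product holds the type I receptor inactive, averaged 657 TPM and *Eng*, which encodes the co-receptor endoglin, 215 TPM, with log2 fold changes of 0.23 and -0.23. *Stub1*, a ubiquitin ligase, and *Strap*, a receptor-binding protein, averaged 193 and 76.1 TPM, with log2 fold changes of -0.31 and -1.01. *Snw1* and *Hdac1*, nuclear partners of the Smads or their repressors, averaged 58.6 and 55.4 TPM, with values of 0.21 and -0.02. *Smad5* and *Smad1*, which carry BMP signals, averaged 18.3 and 17.6 TPM, with values of 0.43 and 0.54, and *Tab2* and *Tab1*, which activate the kinase TAK1, averaged 10.9 and 7.21 TPM, with values of -0.56 and 2.53. None of these genes had an unadjusted p under 0.05 in limma.

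Genes known to respond to TGF-β in mesenchymal cells did not move in 1 direction. Of 14 such genes other than *Skil* and *Smad7*, 13 were tested, with 5 log2 fold changes above 0 and 8 below and a median of -0.80, which was -0.25 without SHF replicate 2 or SHF replicate 3. At an unadjusted p under 0.05 there were 4 genes higher in CNC and 1 higher in SHF, against 3.17% and 2.69% of all genes tested, and in all 5 the libraries of the lineages did not overlap, where 5.68% and 6.11% of all genes were apart in these directions. *Col1a1*, the collagen I chain, was at 4004.56 to 4541.34 TPM in SHF and 7322.3 to 12778.1 TPM in CNC, with a log2 fold change of -1.26, a standard error of 0.24 and an adjusted p of 0.465 in limma. *Col1a2* had a log2 fold change of -1.08, *Tgfbi*, a secreted matrix protein, of -0.84 and *Col3a1* of -0.80, with adjusted p-values of 0.475, 0.625 and 0.680 in limma. *Bhlhe40*, a transcriptional repressor, was higher in SHF, at 310.44 to 502.42 TPM against 106.5 to 186.96 TPM, with a log2 fold change of 1.26 and an adjusted p of 0.625. So *Skil* and *Bhlhe40* had higher values in SHF libraries and the 3 collagen chains and *Tgfbi* had higher values in CNC libraries. The 10 fibroblast markers were also higher in CNC in sum, with 9 log2 fold changes below 0, while *Tcf21* of the same list was at 237.95 to 530.64 TPM in SHF and 47.98 to 105.68 TPM in CNC, with a log2 fold change of 2.31 and an adjusted p of 0.475 in limma. Their part in this was not tested.

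**Figure D4:**
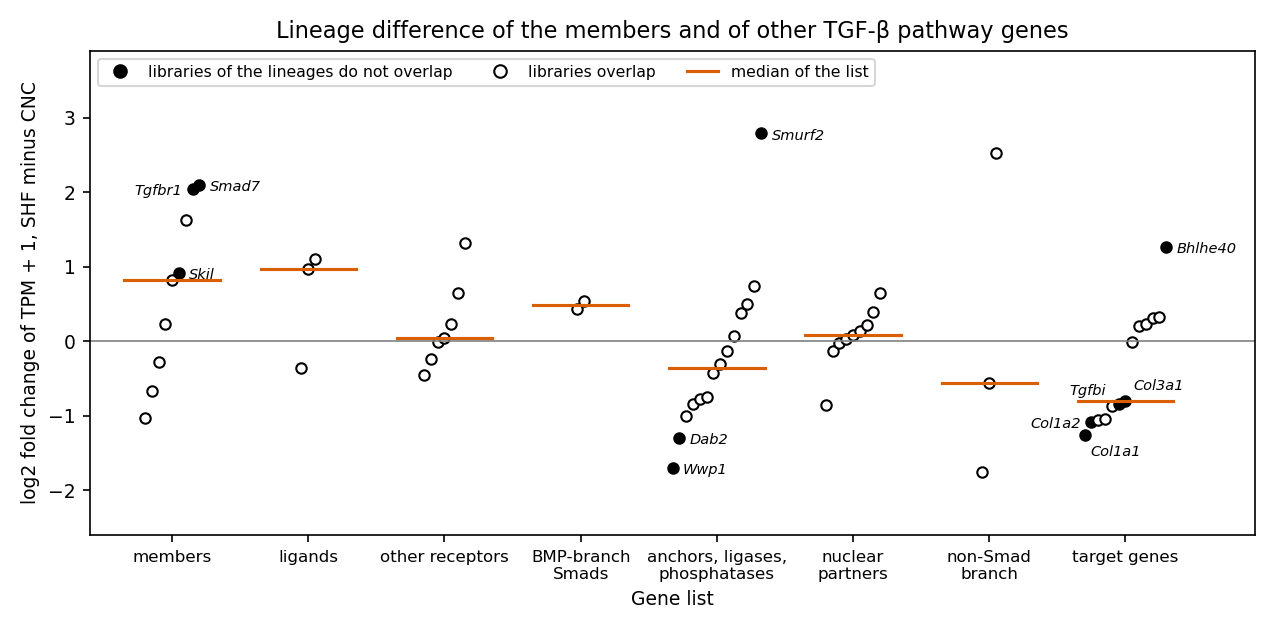
Log2 fold change of TPM + 1 (SHF minus CNC, vertical axis) of the tested genes of each list, filled where the libraries of the lineages do not overlap, with an orange bar at the median of the list. Members above 0 include *Tgfbr1*, *Smad7* and *Skil*, and the filled target genes below 0 are *Col1a1*, *Col1a2*, *Col3a1* and *Tgfbi*.

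For the 3 members with the widest range over libraries, the gene nearest in pattern is given as a description only, since over 6 libraries some gene will always lie near. Likeness was the root-mean-square difference, over the 6 libraries, of log2(TPM + 1) centred on the mean of each gene. Closest to *Smad7*, whose values spanned 5.22 on the log2 scale, was *Papola*, a poly(A) polymerase, at a difference of 0.35. *Papola* was at 69.98, 172.95 and 71.05 TPM in SHF replicates 1 to 3 and at 5.43, 57.17 and 41.93 TPM in CNC replicates 1 to 3, so that it too was highest in SHF replicate 2 and lowest in CNC replicate 1. Closest to *Smad4*, with a span of 5.20, was *Ppp1r3c*, which targets a phosphatase to glycogen, at 0.31, and closest to *Tgfbr1*, with a span of 4.44, was *Epm2aip1* at 0.24. The gene nearest in pattern to *Tgfbr1* was low, at 9, 14.66 and 13.55 TPM in SHF replicates 1 to 3 and at 0, 8.5 and 3.36 TPM in CNC replicates 1 to 3.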

How the data were processed

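The authors amplified RNA of sorted GFP+ cells by SmartSeq2, prepared Nextera XT libraries, used bowtie2 for alignment, and quantified genes on mm10 by RSEM 1.2.25 (tools and build per the labels and methods). They deposited TPM values, 1 column per library, which sum to 1000000, and the gene annotation is not given in the sources used here. Columns were matched to the 3 SHF and 3 CNC libraries by library code. Depth is unknown, so no interval for counting error or detection limit was computed.

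From the deposited TPM, log2(TPM + 1) of SHF and CNC was fitted by limma 3.58.1 (R 4.3.3, moderated by eBayes with an intensity trend) for the 10185 genes that reached 1 TPM in 3 or more libraries, p-values being adjusted by Benjamini-Hochberg and called under 0.05. On simulated data the fit recovered only part of the changes put in, so a gene not called is not shown to be unchanged. The members and gene lists were chosen with earlier results of these data known. Named are the members, the ligands, and of each other list, markers included, the 2 genes with the highest mean and, of pathway and target lists, those with an unadjusted p under 0.05. Other markers, *Wwp1*, *Dab2*, *Gm13305* and the genes of the closing observations were picked after their values were seen. The glial marker list is reported in part, and the rest of it is not reported here. Neighbours in pattern are named for the 3 members with the widest range. As alternatives, each library was left out, the replicate number was added as a block, the trend was dropped, values were rescaled by median of ratios or by quantiles, the filter was varied and the pseudocount was set to 0.1 or 5. Positions are from GENCODE M21 and promoters from RefSeq on GRCm38.p6, which held 5 of the members outside chromosome 18. Tables and plots used Python 3.11.15, pandas 2.3.3 and matplotlib 3.10.9.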

Additional observations from a re-analysis of the deposited data

How the results depend on the processing

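No member passed the adjusted threshold under the 14 alternatives, which says nothing about stability, since no gene passed as reported. Every alternative reuses the same libraries or part of them. *Smad2* passed the filter in 13 and *Smad4* in 11 of the 14 alternatives. For direction, 120 of 122 log2 fold changes of members kept their direction, with *Smad2* at -0.01 counted as kept. The exceptions came from leaving out 1 library, with *Tgfbr2* running from -0.11 to 0.52 and *Tgfbr3* from -0.46 to 0.01. Over the 4 libraries with Y-linked transcripts *Smad2* turned to 1.93. The number of members whose lineages do not overlap ran from 3 to 5 when 1 library was left out, with the highest count when SHF replicate 1 or CNC replicate 3 was dropped. It was 6 over the 4 libraries with Y-linked transcripts, where fewer libraries can overlap. The share of all genes tested is not given for these smaller sets, so these counts cannot be read against it. Over all genes, 1 passed with a pseudocount of 5 (*Gm13305*, higher in CNC) and 0 otherwise. List medians ran from 0.25 to 1.02 for ligands, from -0.09 to 0.43 for other receptors, from -0.20 to 0.97 for BMP-branch Smads, from -1.52 to 0.65 for the non-Smad branch and from -0.73 to -0.25 for target genes when 1 library was left out, and the ligand median was 0.30 with at least 5 TPM in 3 libraries. With a pseudocount of 0.1 the SHF minus CNC difference in the log2 ratio of *Smad3* to *Smad2* was 1.37, against -0.36 with a pseudocount of 1. *Smad2* was listed at 0 in SHF replicates 2 and 3, so the ratio in these libraries depends on the pseudocount. Libraries with the same replicate number had correlations of deviations of -0.011, -0.004 and -0.011, and those with different numbers of -0.023 to 0.04. These values do not show whether replicates shared a batch. With a replicate block 0 genes passed, as without it, and the unadjusted p of *Skil* in limma was 0.0511. Groups of 3 were not tested for outliers. Unknown depth limits the genes listed at 0.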

Other observations

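Several pathway genes were highest in SHF replicate 2, a pattern picked after its values were seen. That library also had the fewest genes above 0 TPM, at 9255, and the highest endothelial sum, at 622 TPM. The share of all genes that were highest there is not given. *Smad1*, which carries BMP signals, was at 70.49 TPM there and at 2.03 and 2.33 TPM in SHF replicates 1 and 3 and 0, 20.98 and 9.61 TPM in CNC replicates 1 to 3. *Smad7*, at 61.74 TPM, and *Acvr1b*, a type I receptor for activins, at 26.55 TPM, were also highest in that library. *Smad3* was at its lowest there, at 3.93 TPM, and *Smad2* and *Smad4* were listed at 0, as *Smad2* was in SHF replicate 3 and *Smad4* in CNC replicate 2. *Smad5*, the other tested BMP-branch Smad, was within its range there, at 16.75 TPM against 11.42 to 33.61 TPM over all libraries. *Bambi*, a receptor decoy without a kinase, was highest there as well, at 85.07 TPM, against 57.64 and 62.84 TPM in SHF replicates 1 and 3 and 61.39, 21.58 and 13.55 TPM in CNC replicates 1 to 3.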
